A study of Mus musculus and Homo sapiens with 12 samples.

Results

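L1MdTf elements are copies of the Tf lineage of mouse LINE-1 (L1), a retrotransposon that spreads through an RNA intermediate. The elements described here are those that the mouse (mm10) repeat table names L1MdTf_I, L1MdTf_II or L1MdTf_III. They were taken by name and not by a measured value, though earlier results of these data were known. They are 9471 of the 3158171 repeat elements in the table, namely 2101 of L1MdTf_I, 2449 of L1MdTf_II and 4921 of L1MdTf_III. Of these, 7382 had a count in at least 1 of the 6 mouse libraries (1856, 2118 and 3408, in the same order). At least 5000 bp was spanned by 3645 elements, here called long, and the other 5826 are called short.

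A full-length L1 carries a promoter at its 5′ end, which in mouse is built of repeated units called monomers, followed by 2 open reading frames. ORF1 encodes an RNA-binding protein and ORF2 an endonuclease and reverse transcriptase. Reverse transcription starts at the 3′ end of the RNA and often stops early, so most genomic copies have lost their 5′ end and with it the promoter. The Tf lineage is one of the young L1 lineages of the mouse, together with A and Gf, and holds copies that can still move.

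The study sequenced chromatin-associated RNA (caRNA) of mouse embryonic stem (mES) cells after immunoprecipitation with an antibody against 5-methylcytosine (m5C), an assay called meRIP–seq. Wild-type (WT) cells were compared with Tet2-knockout (Tet2-KO, Tet2−/−) cells, which lack an enzyme that oxidises methylated cytosine, with 3 libraries of each genotype. Both lines were obtained from another laboratory and grown in serum with LIF, CHIR99021 and PD0325901, with feeder cells removed by passaging before the experiments, and no other allele or agent is named for either group. The study calls its genome-wide replicates biological, but how the 3 libraries of a genotype were separated and how many clones stand behind a genotype are not given in the sources used here, so p-values measure the spread between these libraries.

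The values are counts of precipitated RNA alone. The input RNA and the added spike-in RNAs were not analysed here, so a difference between genotypes mixes the amount of an RNA with its m5C enrichment, and it is relative to the other repeats. Fewer cells that make an RNA and less RNA per cell cannot be told apart. Library totals were 2199886 to 3318565 counts in WT and 1532029 to 1999210 in Tet2-KO, so that Tet2-KO values rest on fewer counts. The table holds repeats and not genes, so neither Tet2 nor marker genes of mES cells could be read. Of the 2 repeats that mark the 2-cell-like state found in mES cultures, MERVL-int fell in Tet2-KO (log2 change −1.73 ± 0.278 (SE), adjusted p = 0.0295, edgeR) and MT2_Mm changed by −1.27 on the log2 scale (adjusted p = 0.312, edgeR). Their summed level was 19843.8 to 22779.3 CPM in WT and 4514.25 to 8686.02 CPM in Tet2-KO. The part of this level in the L1MdTf values was not tested. Here CPM are counts scaled to library totals that were adjusted by TMM factors. Over subfamilies these factors were 0.898 to 0.971 in WT and 1.04 to 1.10 in Tet2-KO. They place Tet2-KO levels lower against WT than library totals alone would.

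The sequences of the elements explain what these counts can resolve. The study designed primers for 2 stretches of L1 RNA, called a15 and a16, to be used after bisulfite treatment, which turns unmethylated C into T. The L1-matching part of the primers is shown because it locates these stretches within L1MdTf.
a15 forward primer: gaataggtggaagtatagaggtgt
a15 reverse primer: tactataacttaaaccacctcccca
a16 forward primer: gttattttttggattggaggatag
a16 reverse primer: cctattcaaactaatttcctaaatt

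With each C read as T, the L1MdTf_II element at chr12:52109811-52116449 (mm10, minus strand) holds both stretches. The 4 target sites are given below on the sense strand, 5′ to 3′, with every cytosine, the base that m5C modifies, in capitals.
a15 forward target, chr12:52116127-52116150: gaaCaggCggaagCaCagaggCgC
a15 reverse target, chr12:52116031-52116055: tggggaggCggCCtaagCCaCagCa
a16 forward target, chr12:52116069-52116092: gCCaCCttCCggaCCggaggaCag
a16 reverse target, chr12:52115973-52115997: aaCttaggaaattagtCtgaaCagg

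The a15 pair was found, in order and at most 300 bases apart, in 549 L1MdTf_I, 502 L1MdTf_II and 4 L1MdTf_III elements, and the a16 pair in 432, 544 and 2. The stretch between the outer ends of a pair had a median of 120 bases. Nearly all of these elements were long: 545 of the 549 and 489 of the 502 for a15, and 429 of the 432 and 531 of the 544 for a16. The elements with the a15 pair held 53.7–55.5% of L1MdTf_I counts in WT and 55.0–56.8% in Tet2-KO. For L1MdTf_III, whose 4 such elements held 0.437–0.653% of its counts, neither amplicon represents the subfamily.

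Parts of the coding sequence were the same in an element of each subfamily. The first 60 bases of ORF1, with the start codon in capitals, were identical in the most highly counted element with both reading frames open of each subfamily.
L1MdTf_I, chr10:56256090-56256149, minus strand: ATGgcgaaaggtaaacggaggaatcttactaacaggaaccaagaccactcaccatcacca
L1MdTf_II, chr12:52115427-52115486, minus strand: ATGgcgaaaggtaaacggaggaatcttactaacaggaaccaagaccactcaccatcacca
L1MdTf_III, chr1:137344478-137344537, minus strand: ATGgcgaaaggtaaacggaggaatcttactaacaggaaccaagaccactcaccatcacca

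ORF1 had 377 codons in the L1MdTf_I element and 371 in the other 2, and ORF2 had 1281 codons in all 3. The L1MdTf_III element (chr1:137337425-137350571) spans 13147 bp, the greatest length among L1MdTf elements, and its ORF2 begins at base 7191. It also holds the a15 and a16 pairs, which few L1MdTf_III elements do, so it may not stand for its subfamily. Reads from such stretches can align equally well to many elements, so the elements are not independent measurements, and the count of a single element depends on how shared reads were divided.

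The same holds for the 5′-truncated copies. Each of the next pairs shows the first 60 bases of a short copy that begins inside ORF2, and below it the same stretch of the long element of its subfamily, with differing bases in capitals. The copies were chosen after their values were seen.
L1MdTf_I short copy, chr12:44490205-44490264, plus strand: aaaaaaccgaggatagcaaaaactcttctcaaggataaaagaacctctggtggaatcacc
L1MdTf_I long element, chr10:56252359-56252418, minus strand: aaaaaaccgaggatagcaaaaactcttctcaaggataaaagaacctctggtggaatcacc
L1MdTf_II short copy, chr4:70847019-70847078, plus strand: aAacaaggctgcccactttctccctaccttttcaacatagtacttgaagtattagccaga
L1MdTf_II long element, chr12:52112279-52112338, minus strand: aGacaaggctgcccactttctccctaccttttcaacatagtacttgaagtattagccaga
L1MdTf_III short copy, chr15:29866436-29866495, plus strand: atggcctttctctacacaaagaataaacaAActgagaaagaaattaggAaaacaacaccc
L1MdTf_III long element, chr1:137341087-137341146, minus strand: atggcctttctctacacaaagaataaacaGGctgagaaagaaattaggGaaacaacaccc

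The copies matched the long elements at 60, 59 and 57 of 60 bases in L1MdTf_I, L1MdTf_II and L1MdTf_III, respectively. They lack the promoter and ORF1, and averaged over all 6 libraries they had 125, 121 and 76.5 counts. The last average is not typical of a library. That copy was at 71.5, 98.1 and 7.97 CPM in WT and at 0.725, 3.52 and 0.676 CPM in Tet2-KO.

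L1MdTf RNA made up a smaller share of the precipitated repeat RNA in Tet2-KO than in WT mES cells, and all 3 subfamilies fell. Of all counts, L1MdTf elements took 32.0%, 31.7% and 34.0% in WT and 23.2%, 23.5% and 22.8% in Tet2-KO (mean ± s.d., 32.6 ± 1.26% and 23.2 ± 0.355%, n = 3 each). The genotypes did not overlap. As assigned, counts were spread over many elements. The 10 L1MdTf elements with the most counts held 1.35–1.71% of the L1MdTf counts of a library and the 1000 highest held 47.2–48.5%. Dividing shared reads among like elements can itself spread counts, so these values do not show how many elements gave rise to the RNA.

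L1MdTf_I, at 135913, 130986 and 150424 CPM in WT, stood at 92011.8, 90108.2 and 80966.6 CPM in Tet2-KO. L1MdTf_II was the highest of the 3, at 142045, 148083 and 164956 CPM in WT against 94361.1, 93367.6 and 86358.6 CPM in Tet2-KO. L1MdTf_III was the lowest, at 51691.4, 55872.2 and 64036.9 CPM in WT against 37110.1, 38976.3 and 40884.8 CPM in Tet2-KO. In each subfamily every Tet2-KO library lay below every WT library, as the plot of CPM by subfamily shows.

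**Figure D1:**
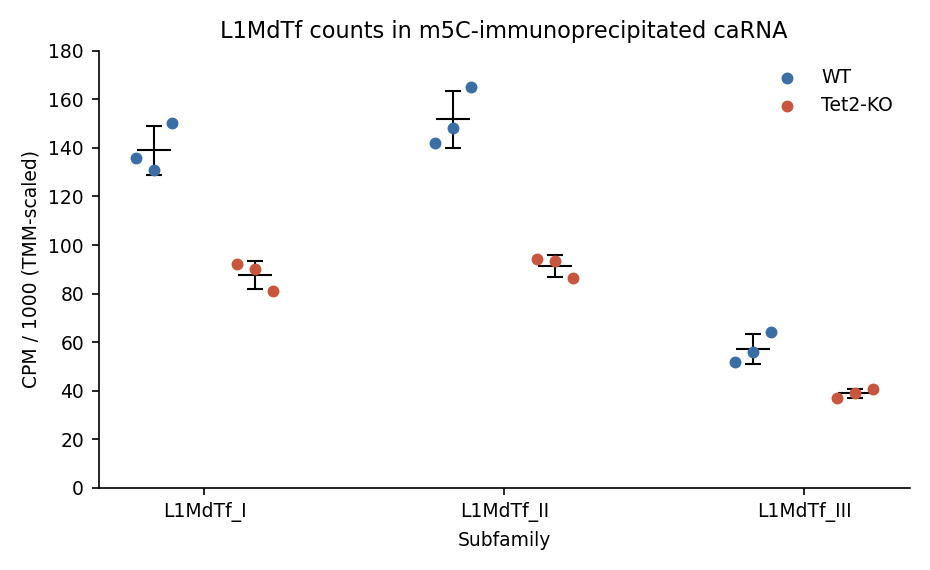
CPM divided by 1000 (TMM-scaled) of the 3 L1MdTf subfamilies in the 3 WT and 3 Tet2-KO libraries, 1 point per library with the mean and s.d. The highest Tet2-KO value of L1MdTf_I is 92011.8 CPM and its lowest WT value is 130986 CPM, and the groups are as clearly apart in L1MdTf_II.

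On the log2 scale L1MdTf_I fell by 0.67 ± 0.0763 (SE, adjusted p = 0.00465, edgeR), L1MdTf_II by 0.73 ± 0.0720 (adjusted p = 0.00276, edgeR) and L1MdTf_III by 0.55 ± 0.0934 (adjusted p = 0.0353, edgeR). Of the 546 repeat subfamilies tested, 11 passed (2.01%), of which 9 fell (1.65%), and 58 (10.6%) had every Tet2-KO library below every WT library. Among the 22 other tested subfamilies of L1Md, the group of mouse L1 that L1MdTf belongs to, 12 did so, including 4 of 7 L1MdA and both L1MdGf subfamilies. Across the 546, log2 changes had a median of 0.11. L1MdTf_III lost its call whichever of the 6 libraries was left out (log2 change −0.61 to −0.47, adjusted p = 0.0508 to 0.156, edgeR), and its change was −0.36 with library totals as the scale (adjusted p = 0.0926, edgeR) and −0.37 over elements with at least 10 counts (adjusted p = 0.159, edgeR).

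Per length, L1MdTf_I and L1MdTf_II were alike and L1MdTf_III was lower. The level per kilobase of annotated element was 17.9 CPM per kb for L1MdTf_I, 17.2 for L1MdTf_II and 4.41 for L1MdTf_III in WT, and 11.3, 10.4 and 3.01 in Tet2-KO. L1MdTf_III has the most elements but the lowest share of long ones (31.7%, 1560 of 4921, against 47.0% in L1MdTf_I, 988 of 2101, and 44.8% in L1MdTf_II, 1097 of 2449). Both reading frames were open, judged by length alone, in 740 long elements of L1MdTf_I, 757 of L1MdTf_II and 261 of L1MdTf_III. The median element length was 3388, 3010 and 1034 bp, in the same order.

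L1MdTf was set against the other young L1 lineages in the same libraries, first against L1MdA, a lineage with another monomer type. The log2 ratio of L1MdTf_I to L1MdA_I was 1.57, 1.57 and 1.67 in WT and 0.14, −0.15 and −0.07 in Tet2-KO. That of L1MdTf_II to L1MdA_II was 2.04, 1.89 and 1.92 in WT and 0.92, 1.09 and 0.95 in Tet2-KO. The genotypes did not overlap in either ratio (difference −1.63 and −0.96), and each gave p = 0.1 and adjusted p = 0.25 (exact permutation test, two-sided, over 20 assignments and 5 ratios), where 0.1 is the smallest p that 3 against 3 libraries allow.

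L1MdA_I itself rose (log2 change 0.97 ± 0.0836 (SE), adjusted p = 0.00170, edgeR) and L1MdA_II changed by 0.23 (adjusted p = 0.320, edgeR). The ratio of L1MdTf_III to L1MdA_III differed by −0.08 (p = 0.4, adjusted p = 0.5, exact permutation test). Against the Gf lineage the differences were 0.01 for L1MdTf_I over L1MdGf_I (p = 0.8, adjusted p = 0.8) and −0.15 for L1MdTf_II over L1MdGf_II (p = 0.3, adjusted p = 0.5, both exact permutation tests), with overlap between genotypes in all 3. Outside L1MdTf, 22 other L1Md subfamilies were tested, of which 1 rose, 3 fell (L1MdGf_I, L1MdF_I and L1MdA_III) and 18 did not pass the test, with a median log2 change of −0.44.

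Long and short elements were then separated within each subfamily, since long elements are those that can keep the promoter. Short elements fell in all 3 subfamilies and stood lower against WT than long elements. Short L1MdTf_I elements were at 9099.27, 8811.80 and 8494.63 CPM in WT and at 3839.66, 4330.33 and 3777.94 CPM in Tet2-KO. Short L1MdTf_III elements, the lowest class, were at 5289.78, 5976.09 and 7121.39 CPM in WT and at 2624.37, 3307.93 and 3021.37 CPM in Tet2-KO. Every Tet2-KO library lay below every WT library in both classes of all 3 subfamilies, as in 11.6% of the 707 classes tested.

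The log2 change of short elements was −1.14 ± 0.106 (SE) in L1MdTf_I (adjusted p = 0.00216, edgeR), −0.97 ± 0.0986 in L1MdTf_II (adjusted p = 0.00327, edgeR) and −1.04 ± 0.159 in L1MdTf_III (adjusted p = 0.0186, edgeR). For long elements it was −0.59 ± 0.0631 in L1MdTf_I (adjusted p = 0.00394, edgeR), −0.65 ± 0.0570 in L1MdTf_II (adjusted p = 0.00193, edgeR) and −0.44 ± 0.0980 in L1MdTf_III, which did not pass (adjusted p = 0.0836, edgeR). Thus 5 of the 6 L1MdTf classes fell, as did 11 of all 707 (1.56%). The short L1MdTf_III call remained only without WT library 1 among the 6 libraries left out in turn (adjusted p = 0.0453 to 0.0839, edgeR), and the call of long L1MdTf_I elements was lost without Tet2-KO library 2 (log2 change −0.64, adjusted p = 0.0714, edgeR).

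The log2 ratio of counts in long to counts in short elements needs no scaling between libraries. In L1MdTf_I it was 3.79, 3.75 and 4.03 in WT and 4.51, 4.30 and 4.46 in Tet2-KO. In L1MdTf_II it was 3.27, 3.28 and 3.22 in WT and 3.55, 3.64 and 3.52 in Tet2-KO. In L1MdTf_III it was 3.13, 3.02 and 2.96 in WT and 3.70, 3.42 and 3.75 in Tet2-KO. The ratio was higher in every Tet2-KO library than in every WT library in all 3 subfamilies, as in 7.26% of the 179 subfamilies with both classes. This was not particular to L1MdTf: 11 of the 13 subfamilies with that pattern were L1Md, 8 of them outside L1MdTf, and L1MdA_I (0.95) and L1MdA_II (0.64) differed by more than any L1MdTf subfamily.

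**Figure D2:**
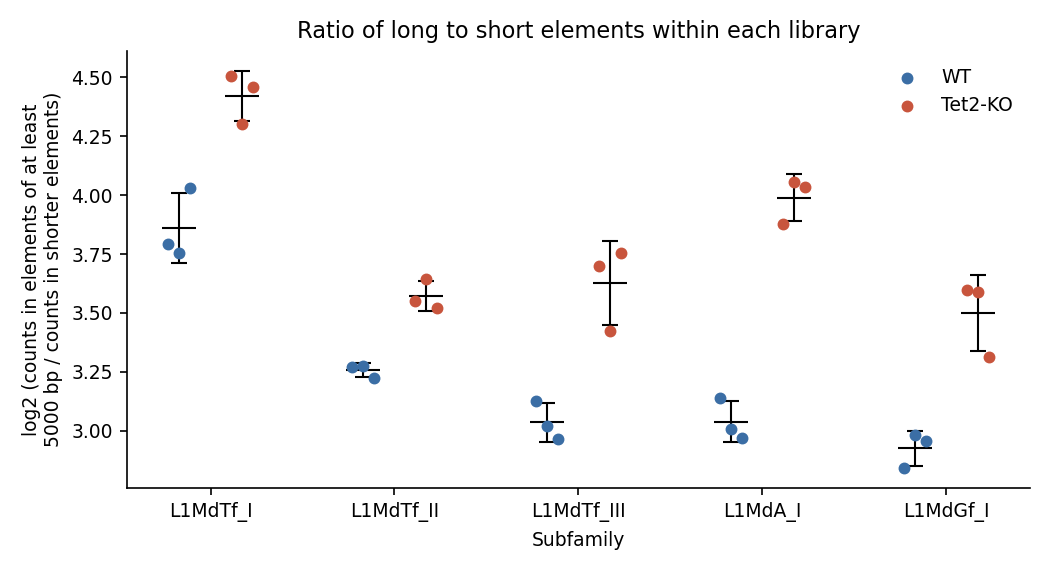
Log2 ratio of counts in elements of at least 5000 bp to counts in shorter elements, 1 point per library with the mean and s.d., for the 3 L1MdTf subfamilies and 2 other L1Md subfamilies. The Tet2-KO points of L1MdTf_I lie between 4.30 and 4.51, above the WT points between 3.75 and 4.03, and the 2 genotypes are likewise apart in L1MdTf_II and L1MdTf_III.

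The test of this difference depended on how the spread was modelled. With the spread shared over all 179 subfamilies in limma, the differences of 0.56 ± 0.291 (SE), 0.31 ± 0.279 and 0.59 ± 0.293 in L1MdTf_I, L1MdTf_II and L1MdTf_III did not pass (adjusted p = 0.515, 0.691 and 0.515). That test called 0 of 179 subfamilies (0%), with 17 at an unadjusted p under 0.05. It also recovered 0% of simulated differences of 1 on the log2 scale. An edgeR interaction test of length class by genotype with library as a block, added after these values were seen, gave adjusted p = 0.0146, 0.0190 and 0.0199 for the 3 subfamilies and called 7 subfamilies higher (3.91%), and limma with a variance trend gave adjusted p = 0.0145, 0.0143 and 0.0205. The other 4 subfamilies called higher by the interaction test were L1MdA_I, L1MdA_II, L1MdA_III and L1MdGf_I, by 0.95, 0.64, 0.43 and 0.57.

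As a share of counts, long elements held 93.5 ± 0.609% (mean ± s.d., n = 3) of L1MdTf_I counts in WT and 95.5 ± 0.322% in Tet2-KO. The shares were 90.5 ± 0.176% and 92.2 ± 0.312% in L1MdTf_II, and 89.1 ± 0.548% and 92.5 ± 0.880% in L1MdTf_III. None of the 3 overlapped between genotypes. Most of the fall in L1MdTf counts thus lay in long elements, which hold most counts, while the fold difference was greater in short elements.

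Elements on the 2 sides of the 5000 bp limit were at like levels. The 50 longest elements under it (4748–4980 bp) held 1936.38, 2475.07 and 2257.36 CPM in WT and 1269.61, 1265.94 and 1697.32 CPM in Tet2-KO. The 50 shortest above it (5018–5309 bp) held 2378.51, 2107.33 and 2599.14 CPM in WT and 1371.39, 1278.84 and 1490.41 CPM in Tet2-KO. In both sets every Tet2-KO value lay below every WT value.

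Length mixes copies that lost their 5′ end with copies broken elsewhere, so elements were also grouped, after the length results were seen, by where they begin in the consensus of their subfamily. The first class begins within the first 500 bases, the end that holds the promoter in a complete copy, and the last after base 5000, in the final part of ORF2 and beyond. Of the 9471 elements, 3609 began within the first 500 bases, 382 after base 500 and up to 2000, 266 up to 3000, 451 up to 4000, 854 up to 5000 and 3909 after 5000. Scaling factors were set anew over these classes, which places their log2 changes about 0.19 above those of whole subfamilies.

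The later an element began, up to base 5000, the lower its class stood in Tet2-KO. In L1MdTf_I the log2 changes of the 6 classes, from 5′ to 3′, were −0.44, −0.63, −0.86, −1.22, −1.59 and −1.06. In L1MdTf_II they were −0.50, −0.68, −0.89, −1.50, −1.64 and −1.32. In L1MdTf_III they were −0.32, −0.09, −0.57, −1.07, −1.68 and −1.20, where the class after base 500 departed from the order, and in Tet2-KO library 3 it stood at 3310.68 CPM, above its 3 WT values of 2424.48, 2575.56 and 2890.90 CPM.

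The class that began after base 4000 and up to 5000, inside ORF2, fell in each subfamily. It was at 1749.64, 1626.27 and 1441.08 CPM in WT and 569.770, 594.460 and 432.407 CPM in Tet2-KO for L1MdTf_I. For L1MdTf_II it was at 2167.46, 1938.10 and 1978.80 CPM against 520.251, 628.998 and 795.649 CPM. For L1MdTf_III it was at 1299.75, 1545.65 and 1464.74 CPM against 457.894, 482.874 and 406.278 CPM, so that the lowest WT value was over 2 times the highest Tet2-KO value in all 3 subfamilies. Single elements of this class were uneven between libraries. Of its 21 elements that averaged 50 counts or more, 5 had the great majority of their counts in 1 library, against 1 of 2822 in the class within the first 500 bases.

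The adjusted p of this class was 0.0222 in each subfamily (edgeR). L1MdTf_I elements beginning after base 3000 and up to 4000 fell as well (adjusted p = 0.0222, edgeR), as did L1MdTf_II elements beginning within the first 500 bases (adjusted p = 0.0260, edgeR). These 5 were the only classes that fell among the 994 tested (0.503%), and 122 of the 994 (12.3%) had every Tet2-KO library below every WT library. Without Tet2-KO library 3 the 5 calls held, and without any of the other 5 libraries they were lost, with adjusted p between 0.0410 and 0.122 over all 6 (edgeR).

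**Figure D3:**
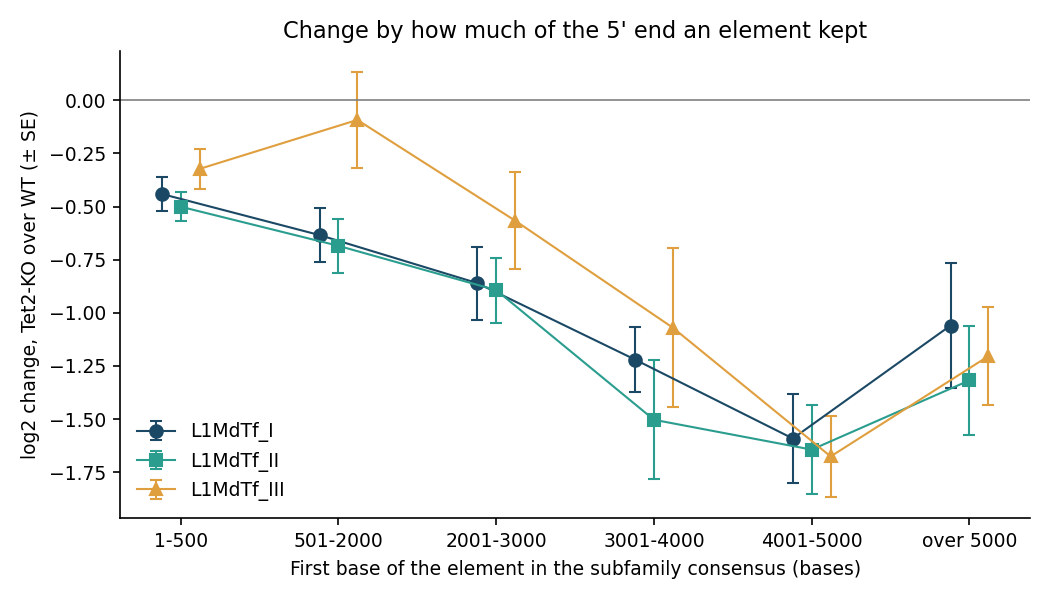
Log2 change (Tet2-KO over WT, ± SE) of counts summed over elements that begin in 6 classes of the subfamily consensus, from the 5′ end on the left, with 1 line per L1MdTf subfamily. The change goes from −0.44 in the first class of L1MdTf_I to −1.59 in the fifth, and all 18 values are below 0.

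The log2 ratio of counts in elements that begin within the first 500 bases to counts in those that begin after base 3000 gives the same contrast without scaling. It was 4.55, 4.56 and 4.94 in WT and 5.51, 5.46 and 5.65 in Tet2-KO for L1MdTf_I. For L1MdTf_II it was 4.71, 4.72 and 4.65 in WT and 5.65, 5.69 and 5.78 in Tet2-KO. For L1MdTf_III it was 3.95, 3.64 and 3.75 in WT and 4.84, 4.57 and 4.95 in Tet2-KO, and the genotypes were apart in all 3.

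**Figure D4:**
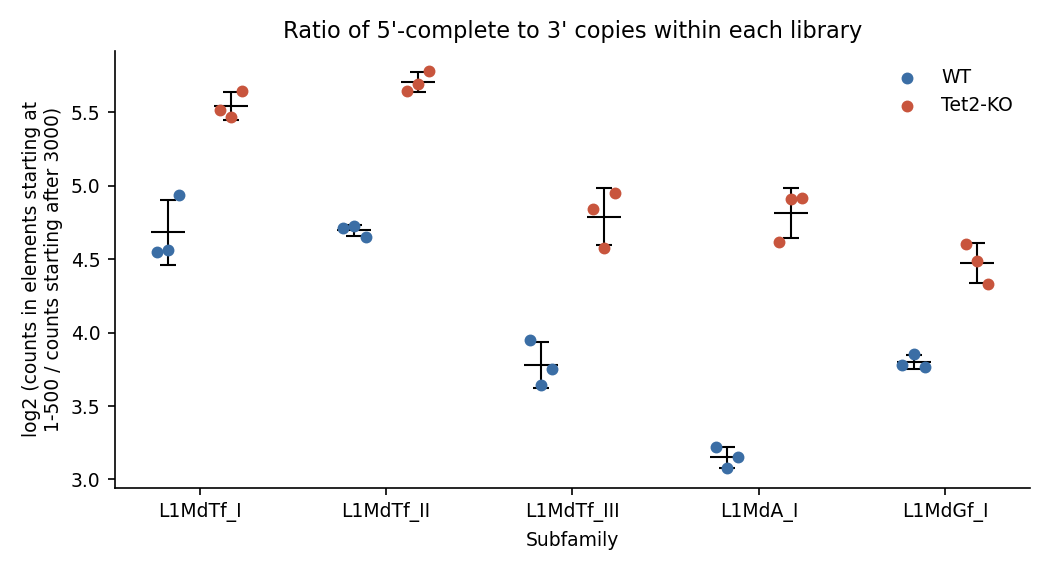
Log2 ratio of counts in elements that begin within the first 500 bases of the consensus to counts in those that begin after base 3000, 1 point per library with the mean and s.d., for the 3 L1MdTf subfamilies and 2 other L1Md subfamilies. The lowest Tet2-KO value of L1MdTf_II is 5.65 and its highest WT value is 4.72.

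The ratio rose in L1MdTf_II by 1.01 ± 0.180 (SE, adjusted p = 0.0291, limma) and in L1MdTf_III by 1.01 ± 0.212 (adjusted p = 0.0404, limma), and its difference of 0.86 ± 0.209 in L1MdTf_I did not pass (adjusted p = 0.0562, limma). Of the 64 LINE subfamilies tested, 3 rose (4.69%), among them L1MdA_I (1.66), and 12 (18.8%) had every Tet2-KO library above every WT library, of which 6 were L1Md subfamilies outside L1MdTf. In the edgeR interaction test, added after these values were seen, 8 subfamilies rose (12.5%), and adjusted p was 0.000531, 5.32e-06 and 0.000531 for L1MdTf_I, L1MdTf_II and L1MdTf_III. The other 5 were L1MdA_I (1.66), L1MdA_II (0.97), L1MdA_III (0.49), L1MdGf_I (0.67) and Lx (1.69). The limma calls of L1MdTf_II and L1MdTf_III were lost in all 6 fits without 1 library (differences 0.97 to 1.04 and 0.93 to 1.12).

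Elements that begin after base 3000 held 3.56 ± 0.492% (mean ± s.d., n = 3) of L1MdTf_I counts in WT and 2.00 ± 0.126% in Tet2-KO. The share was 3.48 ± 0.0943% and 1.78 ± 0.0764% in L1MdTf_II, and 6.37 ± 0.644% and 3.26 ± 0.463% in L1MdTf_III. The genotypes did not overlap. These copies are 1028 of the 2101, 1167 of the 2449 and 3019 of the 4921 elements, so the greatest fold differences were found in a large part of the elements and a small part of the counts.

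Long elements were left out to see whether the contrast remains at short lengths, where 12, 46 and 121 elements of L1MdTf_I, L1MdTf_II and L1MdTf_III still begin within the first 500 bases. Among short elements the ratio was −3.52, −3.30 and −2.61 in WT and −1.96, −1.96 and −1.67 in Tet2-KO for L1MdTf_I. It was −1.06, −0.84 and −0.93 against 0.28, 0.33 and 0.87 for L1MdTf_II. It was −1.62, −2.22 and −1.61 against −0.67, −0.75 and −0.64 for L1MdTf_III, so that all Tet2-KO libraries were again above all WT libraries, as in 30.8% of 39 subfamilies.

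The differences among short elements were 1.27 ± 0.380 (SE), 1.44 ± 0.337 and 1.13 ± 0.340, with adjusted p = 0.106, 0.0723 and 0.106 (limma). Limma called 0 of the 39 (0%), with 8 at an unadjusted p under 0.05. Short elements that begin within the first 500 bases changed by −0.26, −0.25 and −0.48 on the log2 scale in L1MdTf_I, L1MdTf_II and L1MdTf_III, and none of these passed the test. Scaling was set anew here too, with a Tet2-KO minus WT difference of 0.17 against −0.0080 for start classes of all lengths. This places the changes of short elements lower than on that earlier scale.

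Other properties of the elements did not divide L1MdTf in the same way. Among long elements, the log2 ratio of counts in elements with both reading frames open to counts in the others differed between genotypes by −0.02 in L1MdTf_I, 0.02 in L1MdTf_II and 0.10 in L1MdTf_III. The genotypes overlapped in each, with WT values of 1.17 to 1.22 and Tet2-KO values of 1.21 to 1.22 in L1MdTf_II. Of all counts of a subfamily, short elements included, those with both frames open held 71.6% in WT and 72.9% in Tet2-KO for L1MdTf_I. The shares were 63.0% and 64.5% in L1MdTf_II, and 25.3% and 27.6% in L1MdTf_III. The genotypes did not overlap in this share in L1MdTf_I and L1MdTf_II, and they overlapped in L1MdTf_III.

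The ratio of counts on chromosome X to counts on autosomes differed by −0.10 ± 0.310 (SE), 0.04 ± 0.312 and 0.08 ± 0.320 in L1MdTf_I, L1MdTf_II and L1MdTf_III (adjusted p = 0.946, 0.966 and 0.957, limma). The ratio of elements that overlap an annotated gene to those between genes differed by −0.03 ± 0.296, −0.03 ± 0.295 and 0.04 ± 0.298 (adjusted p = 0.985 in each, limma). Genotypes overlapped in all 6 ratios. Limma called 0 of 207 subfamilies for chromosome X (0%, 14 at an unadjusted p under 0.05) and 0 of 407 for genes (0%, 25 at an unadjusted p under 0.05). Of the 9471 elements, 987 lie on chromosome X, 1248 within a gene in sense, 1685 in antisense, 89 in genes of both strands and 6449 between genes.

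At single elements most differences ran the same way but none was called. Of the 9471 elements, 4299 passed the filter on low counts (1231, 1421 and 1647 of L1MdTf_I, L1MdTf_II and L1MdTf_III). Scaling was set anew over single elements, with a Tet2-KO minus WT difference of −0.27 on the log2 scale against 0.18 over subfamilies. This places log2 changes and Tet2-KO levels of single elements higher than on the subfamily scale, so these are not to be compared directly. EdgeR called 0 of them, as it called 9 of all 19030 elements tested (0.0473%). At an unadjusted p under 0.05 there were 541 of these L1MdTf elements (12.6%), against 21% of all tested elements. DESeq2 called 184 L1MdTf elements, 167 lower and 17 higher, and 11.3% of all tested elements. In a simulation over all 19030 tested elements, edgeR recovered 0% of 200 changes of 2 on the log2 scale. The changed elements were drawn from all repeats, and L1MdTf elements were not simulated apart.

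Averaged over all 6 libraries, 3148 L1MdTf elements had 50 counts or more, and they held 93.4% of the L1MdTf counts. This average weighs the more deeply sequenced WT libraries more, so elements low in Tet2-KO could reach it through WT alone. On the subfamily scale, every Tet2-KO library lay below every WT library in 1610 of them (51.1%), and every one lay above in 13. The lower share was 58.2% in L1MdTf_I (620 of 1065), 62.9% in L1MdTf_II (761 of 1209) and 26.2% in L1MdTf_III (229 of 874). Over all 9974 repeat elements that reached it, 28.5% were lower and 11.1% higher. Outside L1MdTf the shares were 18.0% and 16.1% of 6826 elements. How reads shared between like elements were divided is not known, so these numbers of elements do not count independent measurements.

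**Figure D5:**
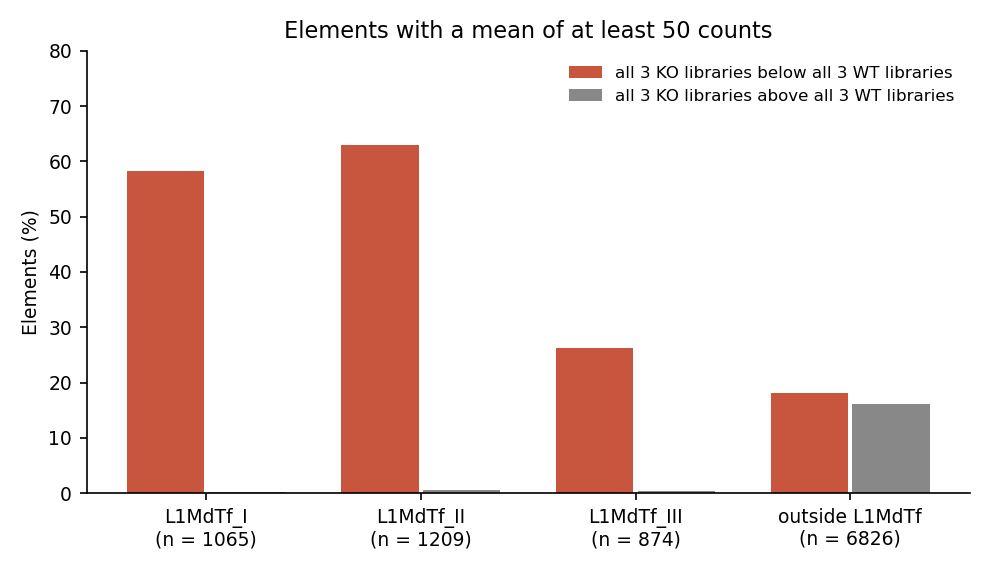
Percentage of elements averaging 50 counts or more in which all 3 Tet2-KO libraries lay below, or above, all 3 WT libraries, for the L1MdTf subfamilies and for elements outside L1MdTf, with the number of elements under each pair of bars. The lower share is 62.9% in L1MdTf_II and 18.0% outside L1MdTf.

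The 5 L1MdTf elements with the highest mean CPM were all long. The highest was the L1MdTf_II element at chr7:33949513-33956373 (mm10, minus strand, 6861 bp, between genes), at 749, 1034 and 615 CPM in WT and 658, 292 and 573 CPM in Tet2-KO. The next was the L1MdTf_I element at chr1:46443010-46450058 (minus strand, 7049 bp), which lies in antisense to Dnah7c, a dynein heavy chain gene, at 660, 536 and 704 CPM in WT and 472, 539 and 497 CPM in Tet2-KO. Both overlapped between genotypes.

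Of the L1MdTf_I elements that follow, that at chr1:48921817-48928252 (minus strand, between genes) was at 558, 531 and 628 CPM in WT and 386, 535 and 653 CPM in Tet2-KO. That at chr1:20277931-20284795 (minus strand), in an intron of Pkhd1 and in its sense, was at 521, 556 and 609 CPM in WT and 398, 524 and 620 CPM in Tet2-KO. The element at chr10:56250473-56257113 (minus strand, between genes), whose ORF1 start is printed above, was at 467, 382 and 416 CPM in WT and 272, 1068 and 534 CPM in Tet2-KO. Its highest value came from Tet2-KO library 2 and its lowest from Tet2-KO library 1. On the single-element scale, the log2 changes of all 5 ran from −0.65 to 0.57, with adjusted p of 0.333 to 0.793 (edgeR).

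Among elements that averaged 50 counts or more, some had no overlap between genotypes on the single-element scale. The 3 of these with the largest positive change were also long, and none was called. An L1MdTf_III element of 7305 bp on chromosome 18, between genes, was at 18.8, 28.6 and 27.2 CPM in WT and 68.1, 84.5 and 421 CPM in Tet2-KO (adjusted p = 0.110, edgeR). The L1MdTf_II element at chr2:54717744-54724309 (plus strand, 6566 bp, in sense within an intron of Galnt13, a glycosyltransferase gene) was at 19.3, 17.1 and 28.2 CPM in WT and 65.2, 125 and 104 CPM in Tet2-KO (adjusted p = 0.101, edgeR). The L1MdTf_I element at chr13:16601342-16608022 (minus strand, 6681 bp, between genes) was at 37.2, 38.0 and 30.9 CPM in WT and 49.3, 71.3 and 348 CPM in Tet2-KO (adjusted p = 0.178, edgeR). In the first and the last of these, Tet2-KO library 3 stood far above the other 2 Tet2-KO libraries.

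The 3 with the largest negative change reached 50 counts through WT alone, so their values are a description and support nothing about short copies. All 3 were short, began inside ORF2 and lay between genes. The L1MdTf_III element at chr13:86297500-86299748 (minus strand, 2249 bp, from base 4329 of the consensus) was at 92.2, 37.3 and 117 CPM in WT and 0.725, 1.76 and 2.03 CPM in Tet2-KO (adjusted p = 0.0773, edgeR). The L1MdTf_III element at chr15:29866436-29868412 (plus strand, 1977 bp, from base 4295), whose first bases are printed above, was at 71.5, 98.1 and 7.97 CPM in WT and 0.725, 3.52 and 0.676 CPM in Tet2-KO (adjusted p = 0.103, edgeR). The L1MdTf_I element at chr17:89781688-89783579 (minus strand, 1892 bp, from base 4688) was at 13.5, 13.6 and 149 CPM in WT and 2.90, 1.76 and 2.03 CPM in Tet2-KO (adjusted p = 0.109, edgeR). None was called, and the WT libraries differed among themselves several-fold in each, with WT library 3 far below the others in the chr15 element and far above them in the chr17 element.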

How the data were processed

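Immunoprecipitated caRNA of 3 WT and 3 Tet2-KO mES cell libraries was analysed. Per the submitters' processing notes, reads were trimmed by the authors (Trimmomatic 0.39), mapped to mm10 (HISAT2 2.1.0) and passed through Picard, which the methods name for removing duplicates. The table that the authors deposited holds estimated counts per repeat element made with featureCounts. The values are fractional, and how reads matching several elements were divided is not given in the sources used here. Whole elements as named by the deposited table were used, with its coordinates (1-based) and consensus positions. The 22 L1MdTf elements on unplaced contigs had no counts.

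Counts were summed per subfamily, per subfamily and length class, and per subfamily and consensus start, and rounded. All DNA, LINE, LTR and SINE elements entered each fit. Genotypes were compared with the edgeR 4.0.16 quasi-likelihood test (filterByExpr, TMM scaling, prior count 2) in R 4.3.3. Ratios within a library, with 1 added to each count and a mean of at least 10 counts in each class, were tested with limma 3.58.1. DESeq2 1.42.0 was an alternative. Tests were two-sided, Benjamini–Hochberg adjustment ran over all features of a fit, and an adjusted p under 0.05 is a call. For edgeR the standard error was taken as the size of the change over the root of its F statistic. CPM in the text of single elements, classes and subfamilies are TMM-scaled, each fit on its own scale. Ratios to other lineages were tested by exact permutation over 20 assignments. On simulated counts the edgeR test recovered 30.5% of changes of 2 on the log2 scale among the 546 subfamilies. Whether samples with the same replicate number belong together was checked through the correlation of their deviations from the group means over 546 subfamilies (−0.09, −0.04 and −0.05), and the numbers were not taken as pairs.

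Sequences were read from mm10, genes from GENCODE M21, which is not the release the authors named. Sense-strand frames were called open by length alone, at 330 or more and under 500 codons for ORF1 and 1200 or more for ORF2. Position and identity of a frame were not checked, so an open ORF1 can be another frame of that length. Single elements are named by level (the 5 highest by mean CPM) and by change (3 rises and 3 falls). Members, lists, start classes and named elements were chosen with earlier results of these data known. Python 3.11.15, pandas 2.3.3 and pysam 0.24.0 were used for the tables.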

Additional observations from a re-analysis of the deposited data

How the results depend on the processing

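Of 472 recomputed values, 379 kept direction and side of the threshold, 67 fell short of it, 15 passed it, 1 count moved and 10 reversed. Library totals in place of TMM moved the median of all subfamilies from 0.11 to 0.29. L1MdTf_III then changed by −0.36, and by −0.60 with DESeq2 size factors, −0.54 without the 10 highest elements and −0.37 over elements with at least 10 counts, none past the threshold. The long L1MdTf_III class passed at a limit of 3000 bp (−0.55) or 6000 bp (−0.45). The long over short ratios (0.56, 0.31 and 0.59) passed in the edgeR interaction test and in limma with a variance trend, as did the 5′ over 3′ start ratio of L1MdTf_I (0.86), all added after seeing the data. That of L1MdTf_II was 1.44 and that of L1MdTf_III 1.13 among elements under 5000 bp, and that of L1MdTf_III 1.01 without the 10 highest elements, none past the threshold. DESeq2 called 184 single elements against 0. L1MdTf_I over L1MdGf_I became −0.013 in long and −0.0018 in short elements. The causes were not tested.

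With the replicate number as a block, L1MdTf_I, L1MdTf_II and L1MdTf_III changed by −0.67, −0.73 and −0.55 (adjusted p = 0.0872, 0.0632 and 0.0872, edgeR), with 0 of 546 subfamilies called and 68 at an unadjusted p under 0.05. The block left the start ratios of L1MdTf_II and L1MdTf_III at 1.01 and 1.01 (adjusted p = 0.0788 in each, limma), took all 5 start-class calls and passed long L1MdTf_III elements (−0.44). It leaves fewer degrees of freedom, and the numbers do not mark pairs.

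Leaving out 1 library at a time gave −0.61 to −0.47 for L1MdTf_III, −0.67 to −0.56 for long L1MdTf_I, −1.18 to −0.95 for short L1MdTf_III, 0.97 to 1.04 and 0.93 to 1.12 for the start ratios of L1MdTf_II and L1MdTf_III, and calls were lost as the results state. Small values crossed 0: L1MdTf_III elements starting after base 500 and up to 2000 (−0.40 to 0.0073), the chromosome X ratio of L1MdTf_II (−0.0077 to 0.083) and L1MdTf_III (−0.00090 to 0.14), the gene ratio of L1MdTf_III (−0.0011 to 0.062), L1MdTf_III over L1MdA_III (−0.15 to 0.0098) and L1MdTf_I over L1MdGf_I (−0.049 to 0.096). Tet2-KO libraries hold fewer counts than WT libraries, and how far depth limits the single elements was not tested.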
